A study of Bos taurus with 6 samples.

Results

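The imprinted domain around KCNQ1 and IGF2 was examined on chromosome 29 of the bovine genome UMD v3.1 in MIRA-Seq libraries of dermal fibroblast cultures. Its members were taken as all windows that the deposited files label with KCNQ1, CDKN1C, PHLDA2, NAP1L4, IGF2, H19, ASCL2, CD81 or TSSC4, which gave 162 of 902984 windows of 3 kb. All 9 genes carried a label. KCNQ1 held 128 of the windows, NAP1L4 18, IGF2 5, CD81 3, H19, ASCL2 and TSSC4 2 each, and CDKN1C and PHLDA2 1 each. The windows lay between positions 49263219 and 50154218, a span of 891 kb and 297 windows, of which 92 had no label and 43 were labelled with other genes. The cultures came from 3 Holstein heifers, with a skin sample taken at 5 months and another at 16 months from each, and 1 library was made of each culture (n = 3 at each age). All cultures were at passage 5, were grown in the same medium and had no treatment. The study chose the 3 animals because their cultures had an intermediate response to LPS, which limits them as a sample of the breed. Fibroblast markers are read in RNA or protein, so the cell type could not be checked in methylated DNA.

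Imprinted genes are expressed mainly from the copy inherited from a given parent, and the choice is carried by DNA methylation laid down in the germ line at imprinting control regions. In mammals this region holds a pair of neighbouring clusters. In the cluster of KCNQ1, a potassium channel gene, the control region lies in an intron of KCNQ1 itself and is the promoter of the non-coding RNA KCNQ1OT1, also called LIT1, and the genes around it include CDKN1C, an inhibitor of the cell cycle, and PHLDA2, which restrains placental growth. In the cluster of the growth factor gene IGF2 and the non-coding RNA gene H19, the control region lies between them, upstream of H19. LIT1 was the amplicon with which the study checked that methylated DNA had been enriched, but neither LIT1 nor KCNQ1OT1 is a label in the files, so the amplicon and the control regions were not placed here.

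In MIRA-Seq, methyl-binding proteins pull down sonicated fragments with methylated CpG sites, so that the reads of a window rise with its methylation and with its number of CpG sites. Levels are given as RPKM, the reads of a window per kilobase and per M matched reads of the library. The libraries had 32.5 to 68.1 M matched reads, of which 19.9 to 43.6 M were counted in windows. The 162 windows held between 13980 and 45972 reads in a library. This was 0.0999% (95% exact binomial interval 0.0985 to 0.101) of the counted reads in the 5-month culture of animal 1 and 0.118% (0.117 to 0.120) in the 16-month culture of animal 2, but 0.0480% (0.0473 to 0.0487) and 0.0470% (0.0462 to 0.0478) in the 5-month and 16-month cultures of animal 3. Both libraries of animal 3 thus stood below the other 4, at both ages. The intervals cover counting error only, and how PCR copies were treated is not stated by the sources used here.

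The domain carried more signal than most of the genome. The median of its 162 windows was 0.880 RPKM, against 0.0299 RPKM over the windows of chromosomes 1 to 29 and X, and 61.1% of them (99 windows) were in the top 5% of windows genome-wide, above 0.568 RPKM. Among labelled windows of chromosome 29 this share was 16.4%. The top 1%, above 1.94 RPKM, held 32 of the windows (19.8%, against 4.004% of labelled windows of chromosome 29), and the top 0.1% held 0. The signal was not even along the domain. It rose above the top 1% limit in blocks of 3 to 18 kb. Between the blocks most windows stayed above the genome median, which 148 of the 162 windows exceeded, including 115 of the 128 in KCNQ1. The 92 unlabelled windows of the span had a mean of 1.21 RPKM, about that of the 162 member windows (1.10 RPKM).

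**Figure D1:**
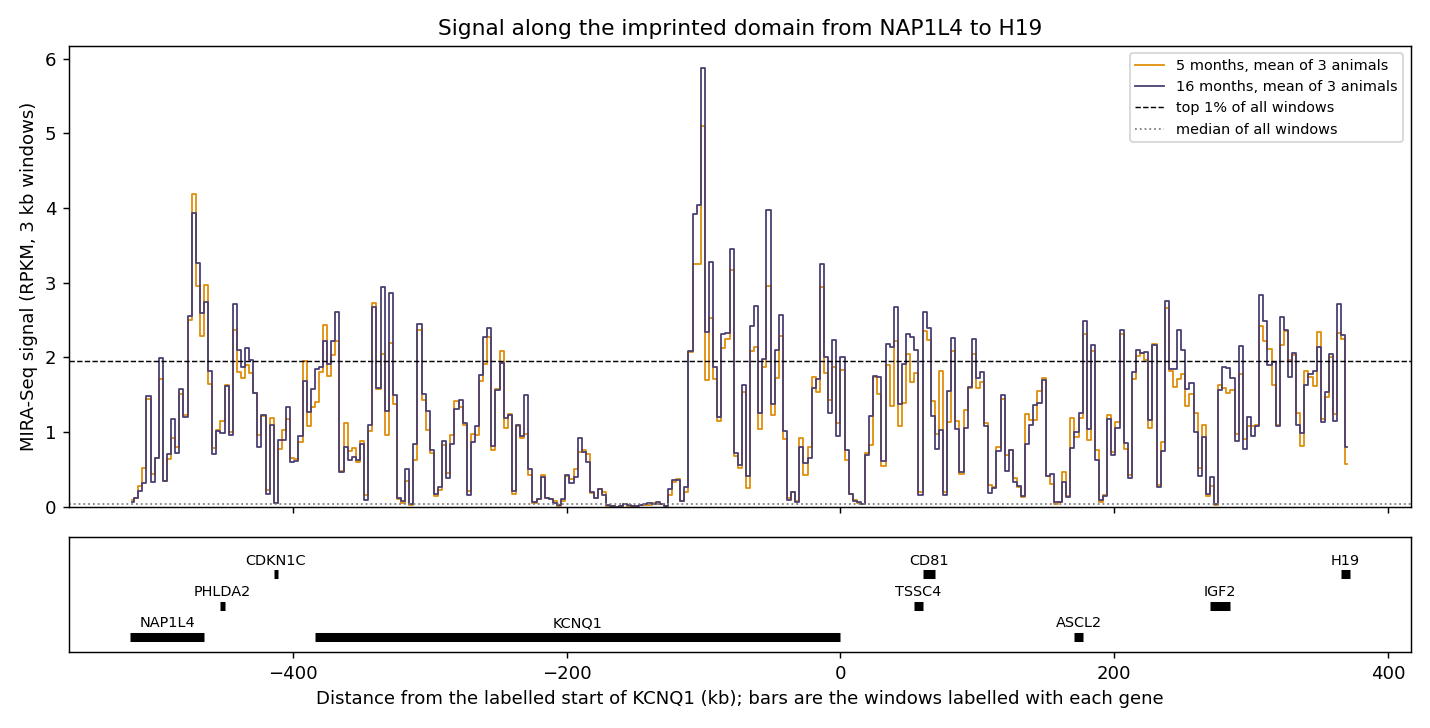
Mean MIRA-Seq signal in RPKM (y axis) of each 3 kb window along the 891 kb from NAP1L4 to H19, against distance in kb from the labelled start of KCNQ1 (x axis, KCNQ1 runs to the left), for the 5-month and 16-month cultures (n = 3 each), with bars for the windows of each gene. The lines of the ages follow the same course, the highest window reaches a mean of 5.49 RPKM over the 6 libraries inside KCNQ1, and the dashed line is the limit of the top 1% of windows, 1.94 RPKM.

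Over whole genes, 8 of the 9 genes were at or above 1.05 RPKM, and CDKN1C was near background. CD81, a tetraspanin of the cell surface, had the highest level at 2.03 RPKM ± 0.939 (SD, n = 6). It was followed by H19 at 1.48 ± 0.588 and NAP1L4, a histone chaperone, at 1.27 ± 0.376. ASCL2, a transcription factor of the trophoblast, was at 1.09 ± 0.440, IGF2 at 1.07 ± 0.397, PHLDA2 at 1.07 ± 0.532, TSSC4 at 1.06 ± 0.467 and KCNQ1 at 1.05 ± 0.388. The SD includes the lower level of animal 3 that these 8 genes share, so it is no measure of the differences between them. Within libraries, CD81 was above H19 in every one, while H19 was below NAP1L4 in both libraries of animal 3. The order was not tested. Among 25310 labelled genes, whose median was 0.0841 RPKM, these 8 lay between the percentiles 93.3 and 98.5. CDKN1C was at 0.0463 RPKM ± 0.0119, percentile 34.5, with 4 to 11 reads in a library.

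Much of the spread within each gene lay between animal 3 and the other animals. For KCNQ1 the levels of animals 1, 2 and 3 were 1.22, 1.23 and 0.558 RPKM at 5 months and 1.35, 1.40 and 0.564 RPKM at 16 months. For IGF2 they were 1.22, 1.26 and 0.534 RPKM at 5 months and 1.38, 1.44 and 0.613 RPKM at 16 months. For H19 they were 1.54, 1.92 and 0.769 RPKM at 5 months and 1.71, 2.16 and 0.763 RPKM at 16 months. In each of these genes both libraries of animal 3 were lower than the other 4 libraries. The same separation held for 8 of the 9 genes. On this scale it was seen in 32.6% of all genes tested, and in all 18 labelled genes that flank the members or lie between them. Among the 9 genes CDKN1C was the exception, with 0.0319 and 0.0547 RPKM in animal 3 and 0.0369 to 0.0616 RPKM in the others.

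**Figure D2:**
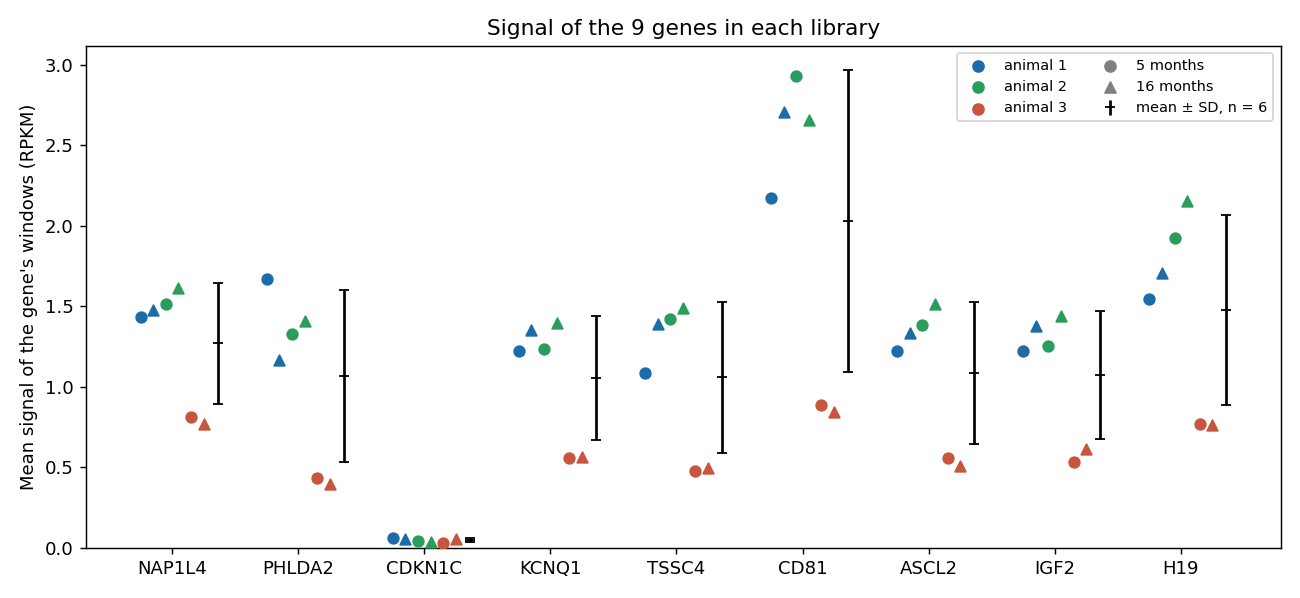
Mean signal in RPKM (y axis) over the windows of each of the 9 genes, in order along the chromosome (x axis), with 1 point for each of the 6 libraries, coloured by animal and shaped by age, and the mean ± SD beside them. In every gene except CDKN1C both libraries of animal 3 lie under the other 4.

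KCNQ1 covers 384 kb on the reverse strand in the files, from 49398219 to 49782218, and its first window is the one at the higher coordinate. Of its 128 windows, 25 passed the limit of the top 1% and fell into 15 peaks of adjoining windows. The strongest peak spanned 18 kb, 93 to 111 kb from the labelled start (chr29:49671219-49689218), with a mean of 3.28 RPKM over 6 windows, 3 of which hold coding sequence. Its highest window, chr29:49680219-49683218, had 5.30, 6.69 and 3.30 RPKM in animals 1, 2 and 3 at 5 months and 6.38, 8.87 and 2.37 RPKM at 16 months, which was the highest of all 162 windows (mean 5.49 ± 2.38, SD, n = 6). It held 347 to 1305 reads in a library. The greatest depth at a base divided by the reads of the window was 0.200 over the libraries, the highest ratio among the peak windows, whose next was 0.133 and whose lowest was 0.0722. The ratio is not a share of reads, since it passed 1 in a member window of few reads, and whether copies of the same fragment raised this window was not tested. The next peaks by height were chr29:49728219-49731218, with the coding segment that the files number 1, at 3.46 RPKM, a 9 kb block 78 to 87 kb from the start with a highest window of 3.31 RPKM, and chr29:49767219-49770218, 12 to 15 kb from the start, at 3.096 RPKM. All 3 lie in the first 96 kb of the gene. The 11 other peaks had means of 2.01 to 2.70 RPKM. Within those 96 kb they lay 3 to 6, 42 to 45 and 60 to 66 kb from the start, and beyond it at 246 to 249, 255 to 261, 306 to 309, 327 to 330, 333 to 336, 339 to 342, 366 to 372 and 375 to 378 kb.

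A quiet stretch followed the strongest peak. Between 144 and 192 kb from the start the mean was 0.190 RPKM (SD 0.0452 over libraries, n = 6), and between 192 and 240 kb it was 0.378 RPKM, while the 6 other stretches of 48 kb averaged 0.994 to 1.83 RPKM. The quiet stretch held 4 windows with almost no reads. In chr29:49617219-49620218 the count was 0 in every library, which at the limit of 3 counts allows up to 0.0147 RPKM in the deepest library and 0.0308 RPKM in the shallowest. Whether such a window lacks methylation, CpG sites or mappable sequence was not tested. Signal then returned, with 8 peaks between 246 kb from the start and the end of the gene. The windows with coding sequence, 10 in number, had a mean of 2.27 RPKM, against 0.951 RPKM for the 118 others. Between the coding segments numbered 10 and 11 lie 38 windows without coding sequence (chr29:49482219-49596218), with a mean of 0.782 RPKM, a highest window of 2.33 RPKM and 3 peak windows. This stretch and the comparison by coding sequence were chosen after their values were seen, and the numbers were read as the order of the segments.

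The course of the signal inside KCNQ1 was nearly the same in all libraries. Across its 128 windows the Spearman correlation between the ages of an animal was 0.970 to 0.984, and that between libraries of different animals 0.947 to 0.989. The values of animal 3 with the others reached at most 0.957, and those between animals 1 and 2 were at least 0.968. Windows share base composition and mappability, so these values describe the profile and are not a test. The number of windows over the library's own top 1% was 21 to 29 in animals 1 and 2, and 13 and 17 in animal 3.

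**Figure D3:**
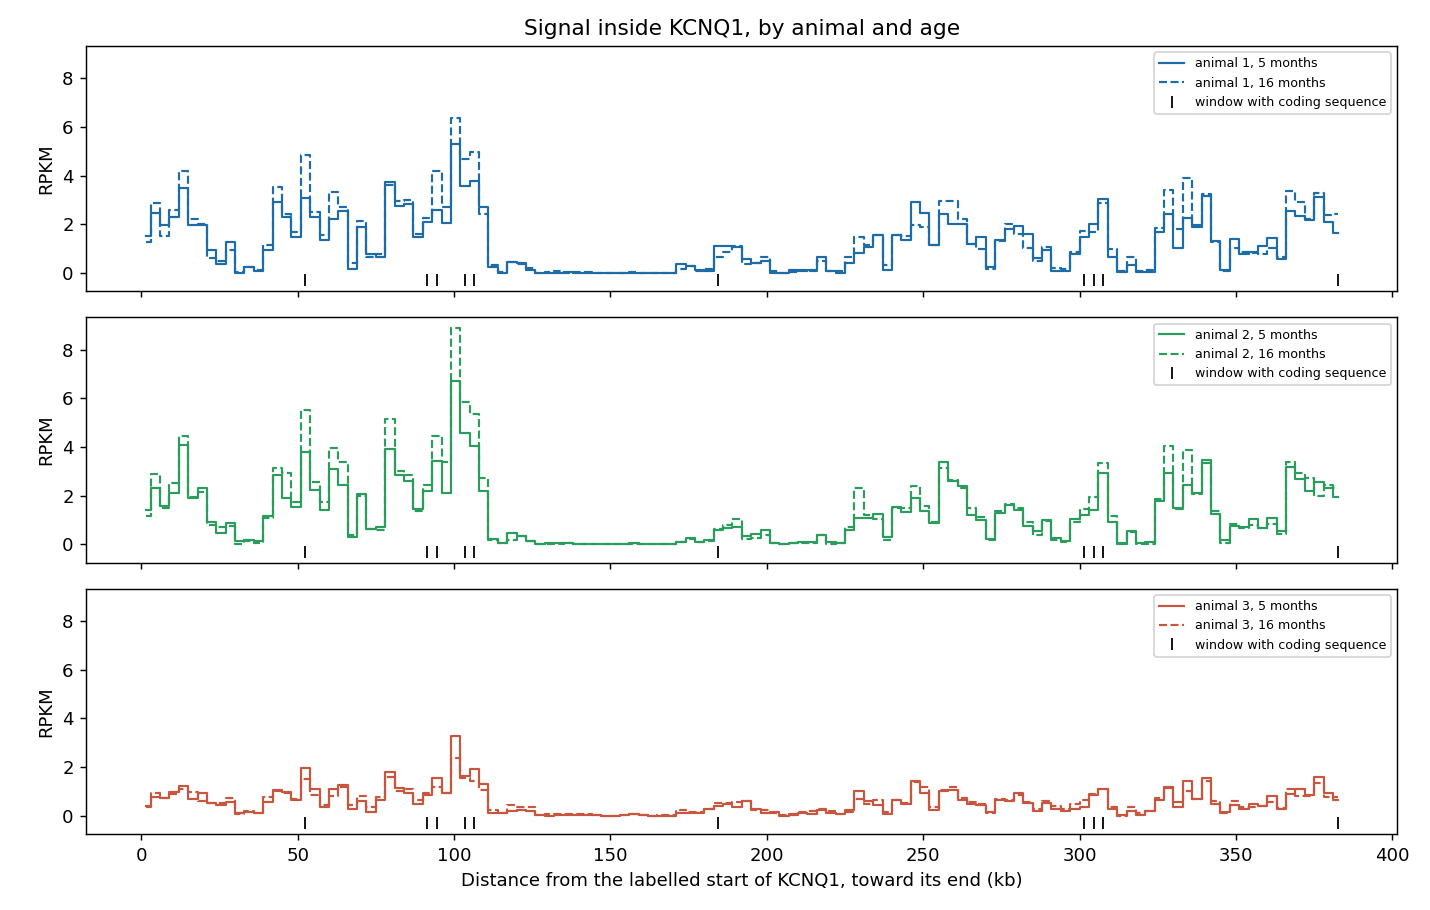
Signal in RPKM (y axis) of the 128 KCNQ1 windows against distance in kb from the labelled start (x axis), in 1 panel per animal with the 5-month culture as a solid and the 16-month culture as a dashed line, and ticks at windows with coding sequence. Each animal has its highest window 99 to 102 kb from the start and little signal from 144 to 192 kb, and the panel of animal 3 is lower at the peaks.

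Past the end of KCNQ1 lie the other members of its cluster. The CDKN1C window (chr29:49368219-49371218), which holds its coding sequence, was a dip between neighbours at 1.14 and 0.831 RPKM. The libraries did not overlap between this window, at 0.0319 to 0.0616 RPKM, and either neighbour, whose lowest library had 0.437 and 0.367 RPKM. The PHLDA2 window (chr29:49329219-49332218) was at 1.07 RPKM and its neighbours were at 1.01 and 1.62 RPKM, so it did not stand out. The level of NAP1L4 differed from end to end. Its first window was at 0.0719 RPKM, and its last 4 windows (chr29:49305219-49317218) formed a 12 kb peak with a mean of 3.03 RPKM, a highest window of 4.05 RPKM and coding sequence in 3 of them.

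On the other side of KCNQ1 the windows of TSSC4, a gene at the edge of the cluster, lay far apart in level. Its first window was at 0.172 RPKM and the other at 1.94 RPKM. CD81 adjoins TSSC4, and its windows had 1.31 RPKM at the start and 2.31 and 2.48 RPKM in the gene, the last pair being a 6 kb peak. Both windows of ASCL2 were even, at 0.959 and 1.21 RPKM.

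IGF2 and H19 lay at the end of the span. The first window of IGF2 (chr29:50052219-50055218) was at 0.336 RPKM and the next at 0.0216 RPKM, with 0 to 9 reads in a library, before the level rose to 1.60 and 1.73 RPKM in the windows that follow. H19 had the opposite course. Its first window (chr29:50148219-50151218) was a peak at 2.27 RPKM ± 0.949 (SD, n = 6), the window upstream of it was at 2.52 RPKM ± 0.993 and the rest of the gene at 0.684 RPKM. The 27 windows between IGF2 and H19 had a mean of 1.66 RPKM, the lowest at 0.837 RPKM. All 27 were in the top 5% of the genome and 10 in the top 1%, so that this interval had signal throughout, without the gaps seen inside KCNQ1. The windows pool both parental copies, so methylation of 1 copy cannot be told apart from partial methylation of both.

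The first window was lower than the rest of the gene in 5 of the 7 genes with more than 1 window in all 6 libraries. The differences in these were 1.77 RPKM for TSSC4, 1.27 for NAP1L4, 1.08 for CD81, 0.923 for IGF2 and 0.255 for ASCL2. KCNQ1 had 1.03 RPKM in the first window and 1.05 RPKM in the rest, lower in 4 of 6 libraries. H19 was higher at the start in 6 of 6. The share of all labelled genes with a lower first window was not computed, so the count cannot be read as a trait of the domain. Over the genome, the study found less methylation in promoters than in gene bodies. Over the 7 genes the first window less the rest averaged -0.533 RPKM ± 0.202 (SD over animals, n = 3), below 0 in 3 of 3 animals. The exact two-sided sign-flip test gave p = 0.25, the smallest that 3 animals allow. The windows of KCNQ1 exceeded the other gene windows of chromosome 29 by 0.746 RPKM ± 0.342 (SD, n = 3), in 3 of 3 animals, with the same smallest p = 0.25 in the exact sign-flip test.

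The genes that flank the members or lie between them had as much signal. The list of flanking and neighbouring genes held 25 names, among them KCNQ1OT1 and LIT1, which name the same RNA and whose promoter lies inside KCNQ1. Of these names 18 were labels, and their levels were 0.969 to 2.99 RPKM with a median of 1.72 RPKM. The highest were TOLLIP at 2.99, CTSD at 2.09 and TNNI2 at 2.08 RPKM. Of their 292 windows, 74.7% were in the top 5% of the genome and 24.0% in the top 1%, shares above those of the members (61.1% and 19.8%). SHANK2, at 48216219 to 48693218 and so outside the span, held 158 of the 292 windows and weighs most on these shares. High signal was thus shared by this end of chromosome 29 and was not particular to the 9 genes. Of the 18, SLC22A18, TRPM5, TSPAN32, TH and INS lie between the members inside the span, so the list is not wholly outside the domain.

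The study compared ages to find regions whose methylation changes as a heifer grows. No member window was called by age. Windows were tested if 3 or more libraries had 1 count per M reads (CPM) or more. The quasi-likelihood test of edgeR was used with animal as a block, and a call required a 2-fold change or more with FDR below 0.1. This tested 122 of the 162 windows, including 92 of KCNQ1 but not that of CDKN1C. Of all 104658 windows tested, 194 were called (0.185%), and 0 of the 122 were. At an unadjusted p under 0.05 there were 9 of 122, and 7429 of all windows (7.1%). With edgeR's likelihood-ratio test and with DESeq2 the count of member calls was 0 as well, where 0.199% and 0.0143% of all windows were called. The lowest adjusted p was 0.466. Without animal 3, 2 of 123 windows were called, against 1.24% of all windows, namely NAP1L4 chr29:49272219-49275218 (log2 fold change 1.04, SE 0.34) and KCNQ1 chr29:49551219-49554218 (-1.06, SE 0.21). Log2 fold changes, positive where the 5-month cultures were higher, ran from -0.78 to 0.67, and CPM in what follows are scaled by TMM factors.

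The window with the lowest p was chr29:49713219-49716218 in KCNQ1, with 0.782, 1.49 and 2.17 CPM in animals 1, 2 and 3 at 5 months and 1.91, 2.18 and 3.30 CPM at 16 months (log2 fold change -0.78, SE 0.31). All 3 animals were higher at 16 months, while the ages overlapped between animals. NAP1L4 chr29:49272219-49275218 had 3.68, 1.92 and 2.99 CPM at 5 months and 1.74, 0.991 and 2.95 CPM at 16 months (0.67, SE 0.27), and the ages were nearly equal in animal 3. The next 3, all in KCNQ1, began at 49464219 (-0.64, SE 0.27), 49419219 (0.48, SE 0.21) and 49449219 (-0.48, SE 0.21). Among the highest peaks, the window from 49680219 was not among the 9.

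Small differences leaned toward the 16-month cultures. The fitted difference was higher at 16 months in 92 of the 122 windows (75.4%), against 47.4% of all windows tested, and its median was -0.11 against 0.02 (log2). Among the flanking gene windows, most of them of SHANK2, 171 of 271 (63.1%) had this direction, as did 14 of the 18 flanking genes. Among all windows between the top 5% and the top 0.1% by level 52.1% did. In KCNQ1 72 of 92 windows leaned this way, and in IGF2 4 of 4. All 3 animals had the same direction in 32 of 122 windows, and in 26% of all windows. Of these 32, 25 were higher at 16 months (11.4% of all windows were) and 7 at 5 months (14.6%). Neighbouring windows are not independent, and the lean was uneven between animals. It was 60.3% of the windows without animal 1 and 59.7% without animal 2.

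Summed over their windows, 0 of the 8 genes tested were called by age, against 2 of 21249 genes (0.00941%). At an unadjusted p under 0.05 there were also 0, and 0.753% of all genes. The log2 fold changes on this scale, which has TMM factors of its own, were -0.07 for KCNQ1, -0.15 for IGF2, -0.06 for H19, -0.12 for TSSC4, -0.0031 for ASCL2, 0.0050 for CD81, 0.03 for NAP1L4 and 0.22 for PHLDA2. Each was smaller than its SE, which was 0.27 to 0.37. The lowest unadjusted p was that of PHLDA2, with an adjusted p of 1.00 in edgeR's quasi-likelihood test. No direction can be given for these genes, because all 8 turned positive without animal 2 and all 8 negative without animal 1. Of the 18 flanking genes 0 were called by age, with log2 fold changes from -0.35 to 0.06.

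**Figure D4:**
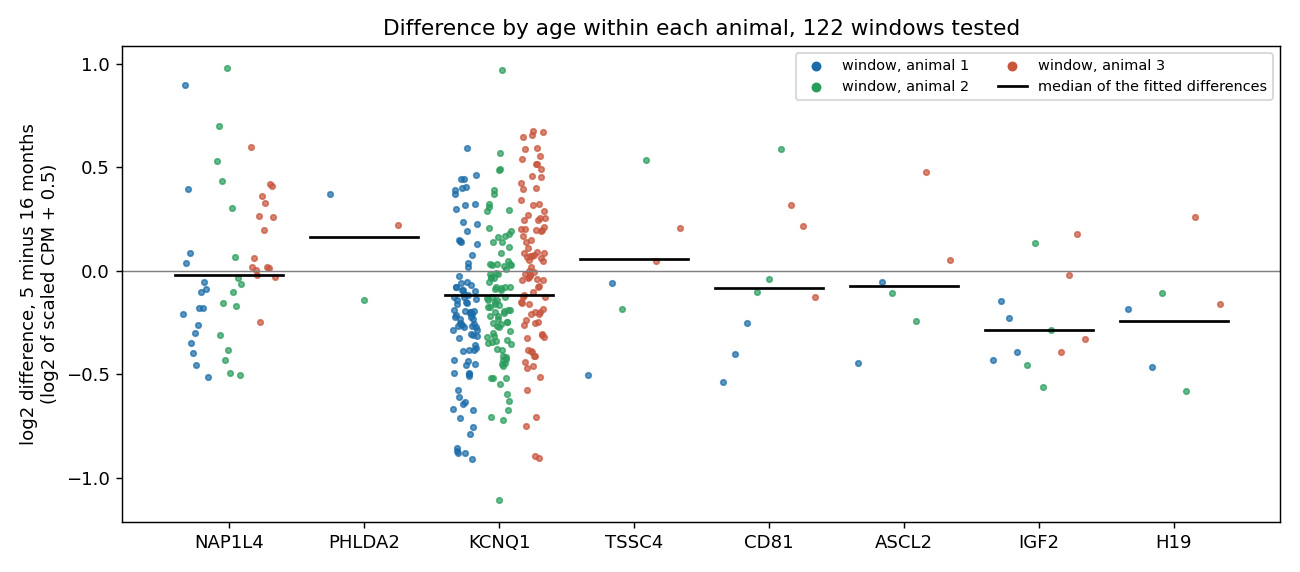
Log2 difference between the 5-month and the 16-month culture (y axis, positive is higher at 5 months) in each animal for the 122 windows tested, by gene (x axis), with a line at the median of the fitted differences. Points of each animal lie on both sides of 0, and the median of the KCNQ1 windows is at -0.12.

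More windows were called between animals than between ages. These counts are not like for like, since the fold between animals is that of the highest over the lowest of 3 animals. The same model, tested for the animal, called 27 of the 122 windows (22.1%), against 20.6% of all windows. The shares were less alike at a matched level. In the top 5%, 21 of 99 member windows were called (21.2%), against 9.14% of all windows between the top 5% and the top 0.1%. Below the top 5% it was 6 of 23 (26.1%), against 27.9% of all windows. Without animal 1 the count of member windows called was 42 of 121 (20.1% of all windows were called), without animal 2 it was 11 of 124 (14.4% of all) and without animal 3 it was 0 of 123 (1.43% of all). The split by direction differed from that of the genome. In 21 of the 27 both libraries of animal 3 were below the other 4 and in 3 they were above, while among all windows 2.73% were called with animal 3 below and 14.3% with animal 3 above. Called or not, animal 3 was below the other libraries in 71 of 122 windows (58.2%), against 21.8% of all windows tested, and above them in 7 (24.2% of all windows). It was below in 29.9% of the windows tested on chromosome 29 and in 44.3% of those of the flanking genes, most of which are of SHANK2. The median log2 difference between animal 3 and the others was -0.57 in the domain and -0.01 over all windows. It was -0.28 over all windows between the top 5% and the top 0.1% by level, and -0.38 over the flanking gene windows. On the RPKM scale, which has no TMM factors, animal 3 was below in 106 of the 122 (86.9%) and in 54.4% of all windows tested.

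This direction moved with the level of the window. Among all windows between the top 5% and the top 0.1%, animal 3 was below the other libraries in 37.9%, and among those tested below the top 5% in 10.4%. In the domain it was below in 68 of the 99 windows in the top 5% and in 3 of the 23 others. The 21 windows called with animal 3 below were all in the top 5%, and the 3 called with animal 3 above were not. Calls over all windows split by level as well. Between the top 5% and the top 0.1%, 1898 of 43949 windows were called with animal 3 below and 1455 with it above. Below the top 5%, 898 of 58712 were called with animal 3 below and 12673 with it above. The libraries of animal 3 also had the lowest share of reads in the domain, and how far the pulldown itself set this was not tested. Each animal is 1 culture line per age, so animal, culture and library cannot be told apart.

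The largest of the called differences in either direction were in KCNQ1 and NAP1L4. KCNQ1 chr29:49587219-49590218, in the low stretch, had 2.53, 1.86 and 4.89 CPM in animals 1, 2 and 3 at 5 months and 1.79, 1.09 and 4.62 CPM at 16 months, a 3.25-fold range between animals (adjusted p = 7.82e-06, edgeR's quasi-likelihood test). NAP1L4 chr29:49287219-49290218 had 0.966, 1.86 and 3.68 CPM at 5 months and 1.43, 0.694 and 4.47 CPM at 16 months, a 3.28-fold range. In both windows animal 3 was above the other 4 libraries. KCNQ1 chr29:49722219-49725218 went the other way, with 6.02, 7.29 and 2.86 CPM at 5 months and 7.59, 9.31 and 3.35 CPM at 16 months, a 2.66-fold range (adjusted p = 3.58e-05, edgeR's quasi-likelihood test).

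The called windows lay in 6 genes. KCNQ1 had 18, of which 14 had animal 3 lowest, 2 had it highest, and 2 neither. Among them were its first window (2.20-fold), the peak at 12 to 15 kb (2.44-fold) and the window from 49677219 in the strongest peak (2.17-fold). NAP1L4 had 4 called windows of 16 tested, CD81 2 of 3, and PHLDA2, TSSC4 and IGF2 1 each. All 5 in the last 4 genes had animal 3 lowest, with ranges of 2.02- to 2.47-fold. None of the 2 windows of H19 and the 2 of ASCL2 was called, though animal 3 was below the other libraries in 1 and in 2 of them.

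By gene sum 3 of 8 genes were called between animals, against 251 of 21249 genes (1.18%). They were CD81 with a 2.84-fold range (adjusted p = 0.0197), PHLDA2 with 2.97-fold (adjusted p = 0.0757) and TSSC4 with 2.65-fold (adjusted p = 0.0876), by edgeR's quasi-likelihood test. The count was 0 without animal 1 (0.0828% of all genes were called) and without animal 3 (0.0527% of all), and 4 without animal 2 (12.8% of all). CD81 had 88.8, 105.9 and 46.5 CPM in animals 1, 2 and 3 at 5 months and 100.9, 123.8 and 34.3 CPM at 16 months. Animal 3 was lowest at both ages in each of the 3 genes. Of the 18 flanking genes 4 were called, namely LSP1, MRPL23, SLC22A18 and TNNT3.

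**Figure D5:**
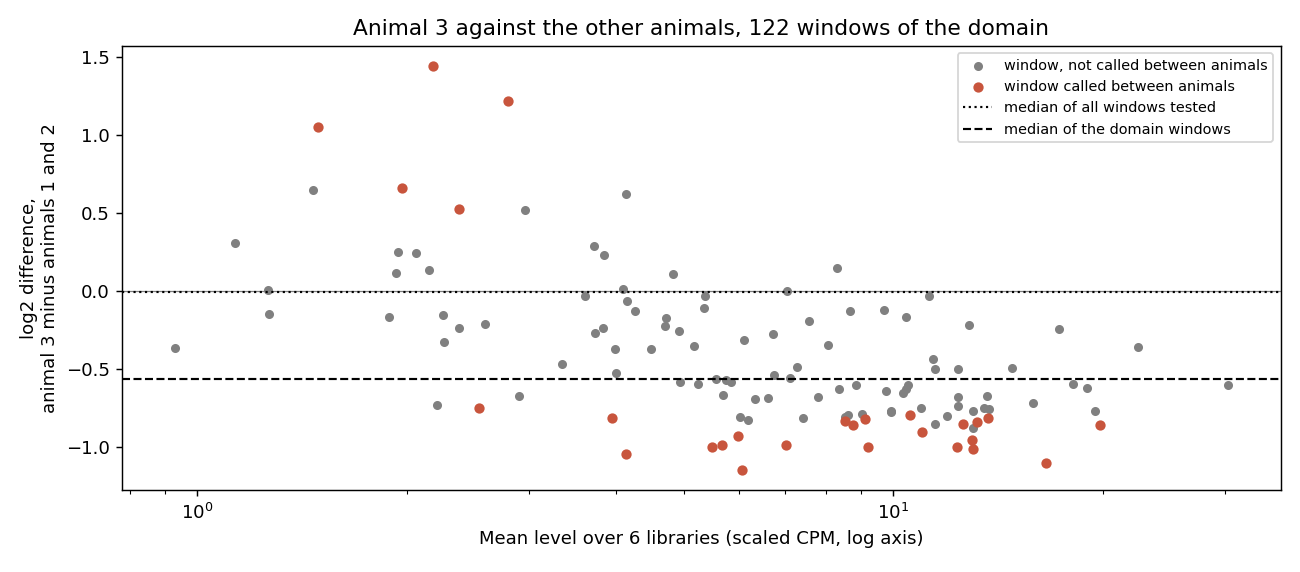
Log2 difference between animal 3 and animals 1 and 2 (y axis, on log2 of scaled CPM + 0.5) against the mean level over 6 libraries (x axis, scaled CPM on a log axis) for the 122 windows tested, with the 27 windows called between animals in red. Most windows lie under 0, and the called windows above 0 have low levels. The median of the domain (dashed) is -0.57 and that of all windows tested, of any level (dotted), is -0.01.

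The levels of many genes followed those of KCNQ1 and IGF2 over the 6 libraries. The nearest to KCNQ1 by Pearson's r of RPKM were USP42, CHCHD6 and CCDC106 (r = 0.9999, 0.9991 and 0.9991) and the nearest to IGF2 were LOC525353, FAM19A5 and IFITM1. Of 18744 genes compared, 17.3% had r over 0.9 with KCNQ1 and 15.2% with IGF2, so that this likeness was not particular to the genes named.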

How the data were processed

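The 6 MIRA-Seq libraries were assigned to their 3 animals and to the ages of 5 or 16 months by the sample labels. The authors filtered the reads, aligned them to bovine genome UMD v3.1 with NextGENe 2.3.4 and deposited, without normalization, the read counts of sequential 3 kb windows with gene labels. The deposited files also give the greatest depth of coverage in each window, a signal not scaled to library size, used only as a ratio to the read count. How PCR copies and multiply matching reads were treated was not stated by any source used here. No genome of this build was used here, so no sequences are shown.

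Members and lists were chosen with earlier results of these data known. Counts of windows, and of genes summed over their windows, that reached 1 CPM in 3 libraries or more were fitted over the whole genome in edgeR 4.0.16 (R 4.3.3, limma 3.58.1), with TMM factors over the features tested, animal as a block, age, the quasi-likelihood test and Benjamini-Hochberg adjustment. Calls needed a 2-fold change or more with FDR below 0.1. Between animals the fold is that of the highest over the lowest animal. The likelihood-ratio test that the study used on pairs was run as an alternative. Scripts were tested on simulated data. Levels and sign-flip tests were computed with numpy 2.4.6, scipy 1.17.1 and pandas 2.3.3 under Python 3.11.15, and figures drawn with matplotlib 3.10.9. Alternatives were DESeq2 1.42.0, other scalings, filters, thresholds and units, no block, and leaving out each animal.

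The pairing comes from the animals. Over windows, the deviations of a pair of libraries from the means of their ages had correlations of 0.290, 0.544 and 0.710 in animals 1, 2 and 3, and over gene sums 0.281, -0.154 and 0.719. The rule for naming took every member, the first, highest, peak and called windows, the 5 windows with the lowest p by age, the flanking genes that were called or highest, and the 3 genes most like KCNQ1 and IGF2. The windows called between animals are named where their range was largest or they lie in a peak or start of KCNQ1, and otherwise counted by gene. The windows called without animal 3, and the stretch between coding segments of KCNQ1, were added after their values were seen. With 3 cultures per age and animal as a block, edgeR's p-values rest on the spread left within animals. This spread was mostly pooled over all features tested (prior degrees of freedom 178 for windows and infinite for gene sums). These p-values therefore say little about how a single window or gene varies between cultures. Tested member windows had 10 to 1305 reads in a library, which sets the counting error.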

Additional observations from a re-analysis of the deposited data

How the results depend on the processing

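The count of member windows called by age was 0 under every alternative except leaving out an animal, where it was 0 to 2, and the counts of member and flanking genes called by age were 0 under all alternatives run, leaving out each animal included. Without the replicate block these counts were 0, 0 and 0, but 0 of all 104658 windows and 0 of all 21249 genes were called there too. Of all windows, 0.0143% were called by age with DESeq2, 0.000226% with no filter and 1.24% without animal 3. A count of 0 among the members says little where so few windows were called. The lean of the member windows toward 16 months, 75.4% of windows, ranged from 59.7% to 77.9%, while of the 8 genes 0 leaned this way without animal 2 and 8 without animal 1.

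The count of windows called between animals, 27, moved with the scaling and the filter, as did the share of all windows called, given in brackets. It was 68 at a fold of at least 1.5 (31.6%), 79 with library size only (30%), 0 with TMM factors from all windows (0.697%), 66 with a filter of 0.5 CPM (18%) and 0 with no filter (0.025%), and 0 to 42 leaving out each animal. The 3 genes called between animals became 1 at an FDR below 0.05 (0.367% of all genes), 7 with edgeR's likelihood-ratio test (3.96%), 1 with DESeq2 (0.32%), 1 with DESeq2's size factors (0.32%), 0 with library size only (0.122%) and 7 with no age term (6.56%), and 0 to 4 leaving out each animal. The causes were not tested. The scaling moved the median of all windows for animal 3 against the others from -0.01 to -0.54 with library size only and -0.72 with TMM factors from all windows. Relative to all windows, of any level, the members lay at -0.59, and at -0.54 to -1.26 under the alternatives.

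KCNQ1 had 25 peak windows, 75 at the top 5%, 0 at the top 0.1%, 27 by the median over libraries and 24 to 27 leaving out each animal. The first window less the rest of the gene was -0.65 to -0.46 RPKM leaving out each animal, and KCNQ1 less the other gene windows of chromosome 29 was 0.641 to 0.944 RPKM. With 6 libraries as the unit these stayed at -0.533 and 0.746 RPKM with an exact sign-flip p = 0.0312 each, the smallest that 6 values allow, but libraries of an animal are not independent.

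Log2 differences of gene sums by age changed sign. Leaving out each animal they ranged from -0.28 to 0.17 for KCNQ1, -0.12 to 0.59 for PHLDA2, -0.18 to 0.27 for NAP1L4, -0.31 to 0.066 for IGF2, -0.27 to 0.18 for H19, -0.25 to 0.25 for ASCL2, -0.20 to 0.12 for CD81 and -0.33 to 0.031 for TSSC4. For NAP1L4 and CD81 they were -0.017 and -0.039 with DESeq2, -0.017 and -0.039 with its size factors, -0.015 and -0.033 with library size only and -0.051 and -0.10 with no replicate block. For ASCL2 they were 0.0058 with TMM factors from all genes, 0.0036 with a filter of 0.5 CPM and 0.0058 with no filter.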
